A study of Mus musculus with 6 samples.

Results

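The genes described here code for the ligands, receptors, Smad proteins, antagonists and Id targets of transforming growth factor beta (TGF-beta) and bone morphogenetic protein (BMP) signalling. They are the 46 genes of a list of symbols, each found in 1 row of the tables, out of 25939 listed genes. RNA was sequenced from cultured vascular smooth muscle cells grown out of mouse aorta. One group of 3 libraries came from cells given trimethylamine N-oxide (TMAO), a metabolite made by the liver from trimethylamine released by gut bacteria. The other group of 3 libraries came from Control cells, and the treatment lasted 48 h. The sources used here do not give strain, age, sex, dose or the number of mice. Nor do they say whether replicates were separate cultures, and p-values then reflect only a spread between libraries that may be technical.

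In this pathway a dimeric ligand brings type I and type II receptor kinases together, and the type I receptor phosphorylates receptor Smads, which enter the nucleus with Smad4. TGF-beta and activin signal through Smad2 and Smad3, BMPs through Smad1, Smad5 and Smad9. Smad6 and Smad7 inhibit the relay. In arteries the pathway is known for control of smooth muscle differentiation and matrix production, and mutations of its receptors and ligands cause aneurysm and pulmonary hypertension in humans.

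None of the 39 tested members passed the test, 0 higher and 0 lower. Of all 11062 tested genes, 20 passed (0.181%), 8 of them higher (0.0723%) and 12 lower (0.108%). The split of all genes past the threshold changed with the processing, to 7 higher and 18 lower with quantile normalization, 12 higher and 7 lower with a filter at 0.1 FPKM, and 12 higher and 10 lower with the replicate block. Among fits without 1 library it was 5 higher and 9 lower without TMAO replicate 3, and the higher genes were the more numerous in 5 of the 6, up to 42 higher and 14 lower without TMAO replicate 2. The test was limma on log2(FPKM + 1), with Benjamini-Hochberg adjustment over all tested genes and a threshold of 0.05. FPKM counts fragments relative to exon length and library total, and genes needed at least 1 FPKM in at least 3 libraries to be tested. The members nearest to the threshold were the inhibitory Smad gene Smad6 and the latent TGF-beta binding protein gene Ltbp2, with lower values after TMAO, and the Id genes Id1 and Id3, with higher values. An unadjusted p under 0.05 was found for 5 of 39 members (12.8%), against 13.1% of all tested genes. It was found for 2 members with higher values (5.13%, against 8.61% of all tested genes) and 3 with lower values (7.69%, against 4.48%). The 3 TMAO libraries lay wholly on one side of the 3 Control libraries for 6 of 39 members (15.4%), against 18.7% of all tested genes. They lay above for 4 members (10.3%, against 12.4%) and below for 2 (5.13%, against 6.23%). The shares of members lay near those of all tested genes.

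Smad6 is printed first among the sequences because it had the smallest p of the members, and Ltbp1 because it was lower beside Ltbp2 and has a pair of annotated starts. The runs are the bases before the RefSeq start sites, read 5′ to 3′ on the gene's strand of mm10, and capitals mark GTCT or its reverse complement AGAC, the core of the Smad-binding element.

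Smad6, chr9:64022060-64022309, minus strand: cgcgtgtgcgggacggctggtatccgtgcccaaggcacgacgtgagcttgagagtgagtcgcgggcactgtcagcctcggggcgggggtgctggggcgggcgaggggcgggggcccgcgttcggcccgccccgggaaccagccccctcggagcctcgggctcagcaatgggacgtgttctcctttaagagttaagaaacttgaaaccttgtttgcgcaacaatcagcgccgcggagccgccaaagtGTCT

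Ltbp1, start of the long form, chr17:75005279-75005528, plus strand: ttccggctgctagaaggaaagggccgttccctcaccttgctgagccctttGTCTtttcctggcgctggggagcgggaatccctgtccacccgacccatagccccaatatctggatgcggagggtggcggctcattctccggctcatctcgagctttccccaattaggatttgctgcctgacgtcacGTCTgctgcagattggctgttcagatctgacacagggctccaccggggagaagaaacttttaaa

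Ltbp1, inner start, chr17:75178531-75178780, plus strand: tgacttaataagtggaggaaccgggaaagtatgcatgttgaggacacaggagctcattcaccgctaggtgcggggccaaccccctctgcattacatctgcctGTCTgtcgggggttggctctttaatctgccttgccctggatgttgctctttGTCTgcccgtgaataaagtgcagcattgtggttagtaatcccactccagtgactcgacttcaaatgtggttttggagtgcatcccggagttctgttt

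The Smad6 run held 1 match, at its 3′ end, and each Ltbp1 run held 2. The deposited values are per gene, so they do not separate the RNAs from the Ltbp1 starts. RefSeq promoters of build GRCm38.p6, the same assembly as mm10, were found for 34 of the 46 members and for 8106 of the tested genes. The shares of tested genes below are over those 8106, while the 34 include members that were not tested, such as Id4 and Smad9. GTCT stood on either strand within the 250 bases before the start in 29 of these 34 genes (85.3%), against 83.8% of tested genes. Ltbp2 and Id3, which had smaller p-values than Ltbp1, are among the 29, and their runs are not printed. The longer word GTCTG, which contains GTCT, stood in 18 (52.9%, against 45.0%). The GC-rich word GGCGCC, its own reverse complement, stood in 12 (35.3%, against 20.2%). The palindrome GTCTAGAC stood in 0 of 34, against 0.185% of tested genes, and a longer composite of GGCGCC and GTCT in 0 of 34, against 0.0987%. These are matches of letters only.

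**Figure D1:**
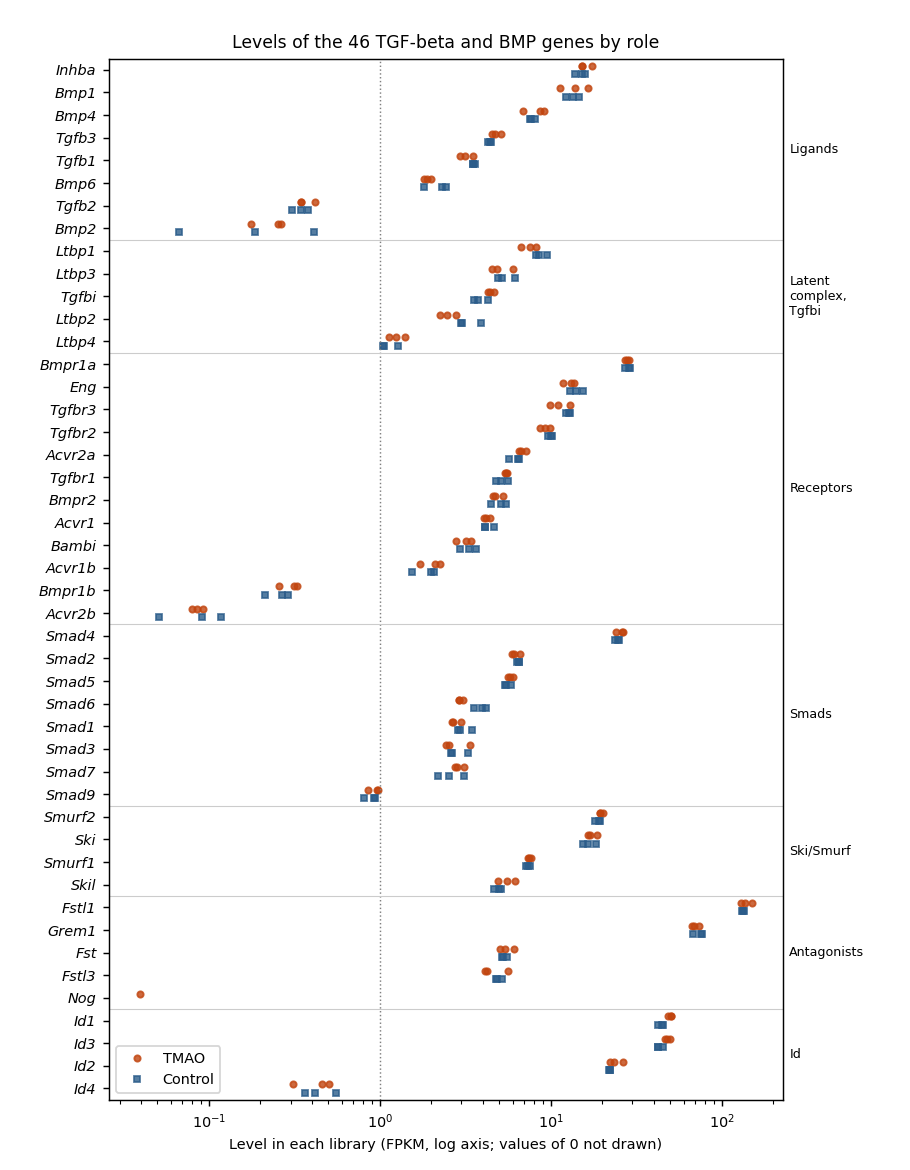
Level of each of the 46 genes in each library, in FPKM on a log axis, grouped by role, with TMAO libraries as circles above and Control libraries as squares below on each line. The dotted line marks 1 FPKM. The antagonist genes Fstl1 and Grem1 and the Id genes Id1 and Id3 stand at the high end, and Nog was listed at 0 in all libraries but TMAO 3.

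The levels spanned 0.00656 to 136.0 FPKM as means over the 6 libraries, as the plot of levels by role shows. Of the 46 genes, 13 stood at 10 FPKM or more, 26 between 1 and 10 FPKM, and 7 below 1 FPKM. Those 7 were Tgfb2, Bmp2, Bmpr1b, Acvr2b, Smad9, Nog and Id4, and they were not tested. The totals implied by the FPKM values were 14991252 to 16806728 reads per library. They put 102 to 12185 reads behind each tested member in a library.

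The cell type label was checked against marker genes. Smooth muscle actin, Acta2, stood at 476.1 to 492.7 FPKM in TMAO and 483.9 to 489.2 FPKM in Control libraries. Of the other 8 smooth muscle markers, Myl9, Actg2, Smtn, Lmod1 and Des were tested and none passed, while Tagln, Cnn1 and Myh11 stayed below 1 FPKM in all 6 libraries. The 9 summed to 593.1 to 612.8 FPKM in TMAO and 610.5 to 614.6 FPKM in Control libraries. Myl9 and Actg2 were below all Control libraries after TMAO and Des above them, with log2 fold changes of -0.07, -0.14 and 0.26. Their limma adjusted p-values were 0.535, 0.344 and 0.344. Of the 6 tested smooth muscle markers, 2 thus lay below and 1 above, against 6.23% below and 12.4% above among all tested genes. All 5 listed endothelial markers were near 0, with summed levels of 0.459 to 0.534 FPKM in TMAO and 0.328 to 0.444 FPKM in Control libraries. The macrophage markers summed to 73.5 to 82.0 FPKM in TMAO and 76.3 to 94.2 FPKM in Control libraries, most of it Lyz2. Cd68 had 3.8 to 4.94 FPKM in TMAO and 3.38 to 4.64 FPKM in Control libraries. C1qa had 2.18 to 3.14 FPKM in TMAO and 1.85 to 3.15 FPKM in Control libraries. Csf1r and Adgre1 reached at most 0.989 and 0.71 FPKM in a library, and Ptprc was near 0 at up to 0.0562 FPKM. The 6 fibroblast markers summed to 210.5 to 228.9 FPKM in TMAO and 232.0 to 263.8 FPKM in Control libraries, groups that do not overlap, and 0 of 5 tested ones passed. Most of this sum was Col1a1, at 155.8 to 171.3 FPKM in TMAO and 174.2 to 206.0 FPKM in Control libraries. The markers did not share a direction: Col1a1, Pdgfra and Lum had log2 fold changes of -0.18, -0.15 and -0.19, and Dcn and Dpt of 0.05 and 0.06. Mitochondrial transcripts took 6.47 to 6.76% of reads in TMAO and 7.39 to 7.96% in Control libraries. The nuclear RNA Malat1 stood at 153.1 to 217.6 FPKM in TMAO and 75 to 112.9 FPKM in Control libraries. Its log2 fold change of 1.02 did not pass (limma adjusted p = 0.196). Their part in the values below was not tested. In such bulk RNA, fewer cells of a type and less RNA per cell cannot be told apart.

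Among the ligands none of 6 tested genes passed, and the smallest limma adjusted p was 0.566. The most abundant was Inhba, which codes for the subunit of activin A. It had 17.4, 15.3 and 15.3 FPKM in TMAO 1 to 3, against 15.2, 15.8 and 13.8 FPKM in Control 1 to 3. The groups overlapped, with a log2 fold change of 0.09 (95% interval -0.06 to 0.25, limma adjusted p = 0.625).

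Of the TGF-beta isoforms, Tgfb3 and Tgfb1 were expressed and Tgfb2 was near the lower end. Tgfb3 had 5.13, 4.52 and 4.73 FPKM in TMAO, against 4.43, 4.30 and 4.47 FPKM in Control libraries. All TMAO libraries lay above all Control libraries, but TMAO 2 by little, and the log2 fold change of 0.10 (-0.05 to 0.26) had a limma adjusted p = 0.584. Exons of antisense genes cover 12.4% of its exon bases. Tgfb1 had 3.52, 2.95 and 3.14 FPKM in TMAO, against 3.51, 3.62 and 3.5 FPKM in Control libraries. TMAO 1 stood level with the Control libraries while TMAO 2 and 3 stood below them, and the log2 fold change was -0.12 (-0.29 to 0.05, limma adjusted p = 0.566). Tgfb2 had 0.345 to 0.415 FPKM in TMAO and 0.308 to 0.378 FPKM in Control libraries, from 194 reads in all.

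The BMP ligand with the highest level was Bmp4, at 8.59, 6.86 and 9.17 FPKM in TMAO and 7.61, 7.59 and 8.10 FPKM in Control libraries. Its TMAO libraries spread on both sides of the Control libraries (log2 fold change 0.06, limma adjusted p = 0.822). Bmp6 stood at 1.90 ± 0.0940 FPKM in TMAO and 2.19 ± 0.338 FPKM in Control (SD, n = 3 each). Exons of Txndc5 on the other strand overlap 5.74% of the Bmp6 exon bases. Txndc5 itself had 83.4 to 86.7 FPKM in TMAO and 85.9 to 86.6 FPKM in Control libraries, and its part in the Bmp6 values was not tested. Bmp2 was rare, with 4 to 22 reads per library. Bmp1, named with the BMPs but coding for a protease that trims procollagen and cleaves the BMP antagonist chordin, had 16.4, 11.3 and 13.8 FPKM in TMAO, against 12.3, 14.6 and 13.4 FPKM in Control libraries. That is the widest scatter of the ligands tested, and its interval for the log2 fold change ran from -0.28 to 0.32.

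Latent TGF-beta binding proteins hold secreted TGF-beta in the matrix until it is released, and Ltbp2, unlike the others, is not thought to bind it. None of these 4 genes passed. Ltbp2 (ENSMUSG00000002020, chromosome 12, 84783212 to 84876532, minus strand of mm10) had 2.48, 2.24 and 2.80 FPKM in TMAO, against 3.00, 3.91 and 3.03 FPKM in Control libraries. Every TMAO library lay below every Control library, with Control 2 well above the rest. The mean differed by -24.3%, and the log2 fold change was -0.30 (-0.52 to -0.07, limma adjusted p = 0.250). It was -0.20 without Control replicate 2 (limma adjusted p = 0.471) and -0.24 without TMAO replicate 2 (limma adjusted p = 0.373), each time with an unadjusted p above 0.05. Over all 15 alternatives the adjusted p-values ran from 0.0923 to 0.594. Exons of D030025P21Rik on the other strand overlap 9.34% of its exon bases.

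Ltbp1, the most abundant of the 4, had 8.20, 6.68 and 7.56 FPKM in TMAO, against 8.18, 9.49 and 8.48 FPKM in Control libraries. TMAO 1 reached just above the lowest Control library, so the groups overlapped. The log2 fold change was -0.20 (-0.38 to -0.02, limma adjusted p = 0.336). Leaving out Control replicate 2 gave -0.14 and leaving out TMAO replicate 2 gave -0.13. The unadjusted p stayed under 0.05 in 9 of 15 alternatives, and was above it in those fits, with no filter, under the replicate block, and without TMAO replicate 3 or Control replicate 3. Ltbp3 and Ltbp4 had log2 fold changes of -0.07 and 0.09, with limma adjusted p-values of 0.816 and 0.739. The fibroblast marker sum given above, most of it Col1a1, was also lower in all TMAO libraries, while Dcn and Dpt were not lower on average. Its part in the Ltbp values was not tested.

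Tgfbi, a secreted matrix protein named for its induction by TGF-beta, had 4.65, 4.41 and 4.30 FPKM in TMAO, against 3.53, 3.77 and 4.29 FPKM in Control libraries. The groups did not overlap, but TMAO 3 and Control 3 were almost level. Its log2 fold change was 0.17 (-0.01 to 0.34, limma adjusted p = 0.394).

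**Figure D2:**
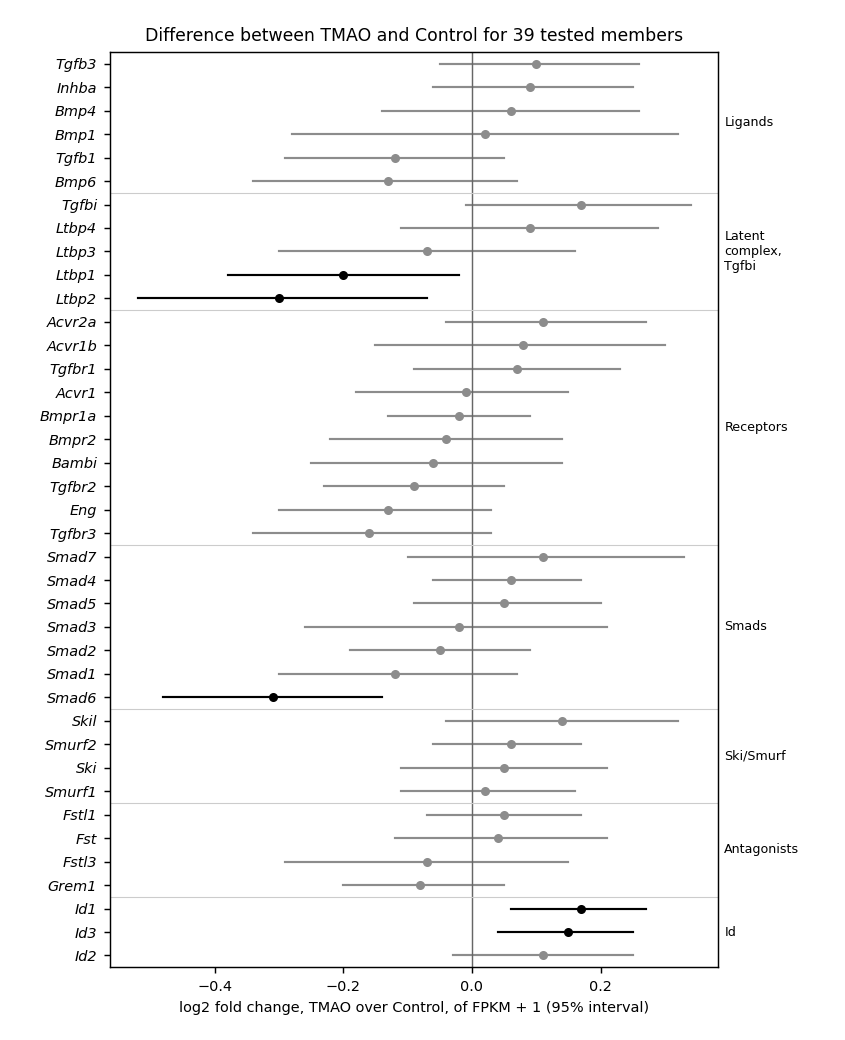
log2 fold change, TMAO over Control, of each of the 39 tested members with its 95% interval from limma, on the scale of FPKM + 1 and grouped by role. Black marks the 5 members with an unadjusted p under 0.05, Smad6, Ltbp2, Ltbp1, Id1 and Id3, and grey the other members.

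None of the 10 tested receptor genes passed, and no receptor had TMAO and Control groups that did not overlap. Type I receptors of BMPs were represented by Bmpr1a, the most abundant receptor gene, at 28.5, 28.0 and 27.1 FPKM in TMAO, against 29.1, 28.8 and 27.0 FPKM in Control libraries. The groups overlapped, and the interval for its log2 fold change of -0.02 was narrow, from -0.13 to 0.09 (limma adjusted p = 0.899). Its paralogue Bmpr1b stood at 0.257 to 0.326 FPKM in TMAO and 0.212 to 0.290 FPKM in Control libraries. Among the activin type II receptors Acvr2a stood at 6.79 ± 0.364 FPKM in TMAO and 6.20 ± 0.469 FPKM in Control, while Acvr2b had 3 to 7 reads per library (SD, n = 3 each). Exons of Orc4 on the other strand overlap 7.84% of the Acvr2a exon bases. Orc4 itself had 8.8 to 9.65 FPKM in TMAO and 8.91 to 10.6 FPKM in Control libraries.

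Co-receptors that present ligand to the kinases had the smallest p-values of the receptors. Tgfbr3, betaglycan, had 13, 9.89 and 11 FPKM in TMAO, against 12.8, 12.9 and 12.2 FPKM in Control libraries. TMAO 1 was as high as the Control libraries and TMAO 2 was the lowest of all. The log2 fold change was -0.16 (-0.34 to 0.03, limma adjusted p = 0.462). It was -0.25 without TMAO replicate 1, where the unadjusted p was under 0.05 (limma adjusted p = 0.209), and -0.07 without TMAO replicate 2. Eng, endoglin, best known from endothelial cells, had 13.6, 11.8 and 13.1 FPKM in TMAO, against 13, 15.5 and 14.1 FPKM in Control libraries. Control 2 was the highest and TMAO 2 the lowest, with overlap between the groups and a log2 fold change of -0.13 (-0.30 to 0.03, limma adjusted p = 0.490).

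The TGF-beta receptor kinases Tgfbr1 and Tgfbr2 had log2 fold changes of 0.07 (-0.09 to 0.23) and -0.09 (-0.23 to 0.05), with limma adjusted p-values of 0.735 and 0.593. Tgfbr2 stood at 9.26 ± 0.643 FPKM in TMAO and 9.92 ± 0.259 FPKM in Control, and Tgfbr1 at 5.45 ± 0.0796 FPKM in TMAO and 5.16 ± 0.414 FPKM in Control (SD, n = 3 each). The BMP type II receptor gene Bmpr2 and the type I receptor gene Acvr1 had log2 fold changes of -0.04 and -0.01. The activin type I receptor gene Acvr1b had 0.08. Bambi, a receptor that lacks the kinase and dampens signalling, had -0.06 (-0.25 to 0.14, limma adjusted p = 0.840).

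Of 7 tested Smad genes none passed, and Smad6 had the smallest p of all 39 tested members. Smad6 (ENSMUSG00000036867, chromosome 9, 63953076 to 64022059, minus strand of mm10), whose product inhibits BMP receptors and whose gene is known to be induced by BMP, had 2.91, 3.05 and 2.89 FPKM in TMAO, against 4.20, 3.56 and 3.97 FPKM in Control libraries. These values rest on 139 to 214 reads per library. Every TMAO library lay below every Control library, with a gap between the groups. The mean differed by -24.6%, and the log2 fold change was -0.31 (-0.48 to -0.14, limma adjusted p = 0.139). By p it ranked 153 of 11062 genes. Its unadjusted p stayed under 0.05 in all 15 alternatives, with limma adjusted p-values of 0.107 to 0.428.

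The other inhibitory Smad, Smad7, acts on TGF-beta and BMP receptors alike. It had 3.12, 2.81 and 2.74 FPKM in TMAO, against 2.19, 3.10 and 2.54 FPKM in Control libraries, and its log2 fold change was 0.11 (-0.10 to 0.33, limma adjusted p = 0.676). Control 2 lay within the TMAO values and Control 1 well below them. The log2 fold change was 0.03 without Control replicate 1 and 0.21 without Control replicate 2, where the unadjusted p was under 0.05 (limma adjusted p = 0.439). The difference between the changes of Smad6 and Smad7 was not tested.

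Smad4, the common partner, was the most abundant Smad, at 26.3, 26.1 and 24.0 FPKM in TMAO and 24.9, 24.8 and 23.7 FPKM in Control libraries. The groups overlapped, with a log2 fold change of 0.06 (-0.06 to 0.17, limma adjusted p = 0.714). Of the receptor Smads, Smad1 had 2.97, 2.69 and 2.63 FPKM in TMAO, against 2.86, 3.47 and 2.94 FPKM in Control libraries. Its log2 fold change was -0.12 (-0.30 to 0.07, limma adjusted p = 0.599), with TMAO 1 inside the Control range. Smad2 and Smad5 were more abundant than Smad1, at 6.23 ± 0.350 and 5.81 ± 0.199 FPKM in TMAO and 6.46 ± 0.0934 and 5.56 ± 0.248 FPKM in Control (SD, n = 3 each), with log2 fold changes of -0.05 and 0.05. Smad3 had -0.02, and Smad9 stood below 1 FPKM in every library.

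**Figure D3:**
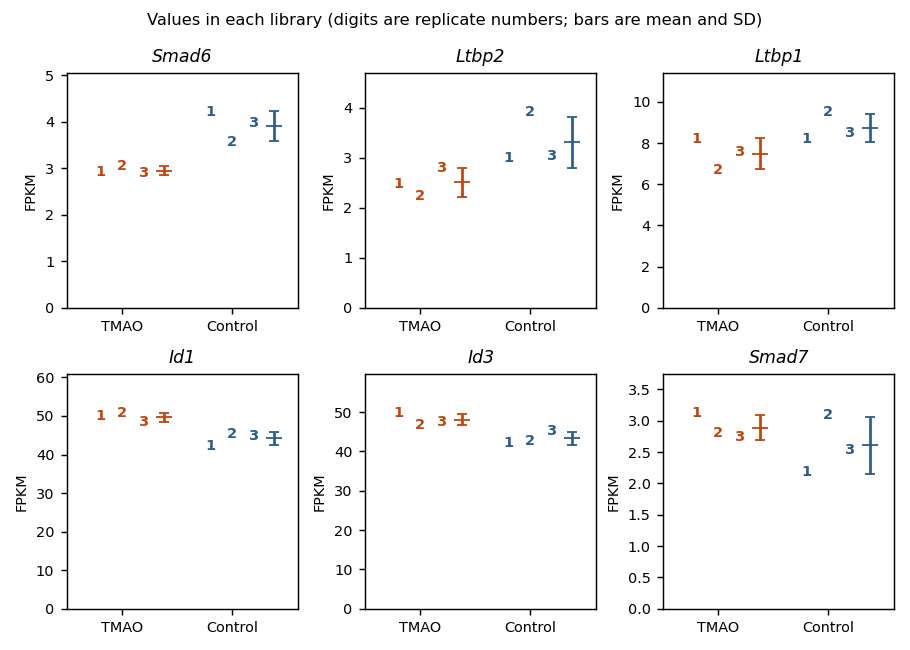
FPKM in each library, TMAO on the left and Control on the right of each panel, for the 5 members with an unadjusted p under 0.05 and for Smad7, the paralogue of Smad6. Digits are replicate numbers, bars are mean and SD, and axes start at 0. The groups are apart for Smad6, Ltbp2, Id1 and Id3 and overlap for Ltbp1 and Smad7.

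Ski and Skil code for nuclear co-repressors, and Smurf1 and Smurf2 for ubiquitin ligases that turn Smads and receptors over. All 4 genes had log2 fold changes above 0, as did 60% of all tested genes, and none passed. Skil, itself a known TGF-beta target, had 6.14, 4.93 and 5.53 FPKM in TMAO, against 4.64, 5.09 and 4.98 FPKM in Control libraries. TMAO 2 lay within the Control values, and the log2 fold change was 0.14 (-0.04 to 0.32, limma adjusted p = 0.493). Smurf2 had 20.2, 19.3 and 19.4 FPKM in TMAO, against 19.1, 19.4 and 18.1 FPKM in Control libraries. The libraries of both groups lay close together, with a log2 fold change of 0.06 (-0.06 to 0.17, limma adjusted p = 0.698). Ski and Smurf1 had 0.05 and 0.02, and the sign turned for Ski without TMAO replicate 1 or Control replicate 1 and for Smurf1 with median-ratio size factors.

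The secreted antagonists included the most abundant members and the rarest. Fstl1, a secreted glycoprotein of the follistatin family, had 150.1, 129.0 and 136.5 FPKM in TMAO, against 133.3, 135.3 and 131.9 FPKM in Control libraries. TMAO 1 stood above and TMAO 2 below the Control libraries, with a log2 fold change of 0.05 (-0.07 to 0.17, limma adjusted p = 0.752). Grem1, the BMP antagonist gremlin, had 73.6, 66.6 and 68.5 FPKM in TMAO, against 75.5, 76.6 and 68.2 FPKM in Control libraries. The groups overlapped through Control 3, with a log2 fold change of -0.08 (-0.20 to 0.05, limma adjusted p = 0.615).

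Follistatin, which captures activin, stood at 5.52 ± 0.546 FPKM in TMAO and 5.31 ± 0.179 FPKM in Control (Fst, SD, n = 3 each). Fstl3, another activin-binding protein, had 5.64, 4.13 and 4.23 FPKM in TMAO, against 5.20, 4.81 and 4.75 FPKM in Control libraries. TMAO 1 lay above all Control libraries and TMAO 2 and 3 below them (log2 fold change -0.07, limma adjusted p = 0.810). Prss57, on the other strand, overlaps 47.3% of the exon bases, and Prss57 itself had 0 to 3 reads per library. Nog, the BMP antagonist noggin, was listed at 0 in 5 libraries and had 1 read in TMAO 3. A count of 0 allows up to 0.105 to 0.118 FPKM of Nog in a library, which covers counting error only.

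Id proteins pair with basic helix-loop-helix factors and keep them from DNA, and Id1, Id2 and Id3 are among the best known direct targets of BMP signalling. None of the 3 tested Id genes passed, and all had log2 fold changes above 0, as did 60% of all tested genes. Id1 (ENSMUSG00000042745, chromosome 2, 152736251 to 152737410, plus strand of mm10) had 50.1, 50.7 and 48.4 FPKM in TMAO, against 42.3, 45.4 and 44.9 FPKM in Control libraries. Every TMAO library lay above every Control library. The mean differed by 12.5%, and the log2 fold change was 0.17 (0.06 to 0.27, limma adjusted p = 0.180).

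Id3 (ENSMUSG00000007872, chromosome 4, 136143497 to 136145755, plus strand) had 49.7, 46.8 and 47.6 FPKM in TMAO, against 42.2, 42.6 and 45.1 FPKM in Control libraries. The groups were again apart, by less than for Id1 in relation to their spread. The log2 fold change was 0.15 (0.04 to 0.25, limma adjusted p = 0.230). Both genes kept an unadjusted p under 0.05 in all 15 alternatives, with limma adjusted p-values of 0.181 to 0.468 for Id1 and 0.210 to 0.512 for Id3.

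Id2 had 23.3, 26.4 and 22.1 FPKM in TMAO, against 22.2, 21.9 and 22.2 FPKM in Control libraries. Its difference lay mainly in TMAO 2, and TMAO 3 was inside the Control range (log2 fold change 0.11, -0.03 to 0.25, limma adjusted p = 0.524). Id4 had 0.309 to 0.503 FPKM in TMAO and 0.363 to 0.552 FPKM in Control libraries, from 19 to 32 reads per library. Malat1 was higher and the mitochondrial share lower in the same TMAO libraries, as given above, and their part in the Id values was not tested.

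Over all 39 tested members, 21 had log2 fold changes above 0 (53.8%) and 18 below, against 60% above 0 among all tested genes. The median was 0.02 for the members and 0.02 for all tested genes, and the median size without sign was 0.08 for the members and 0.07 for all tested genes. The 95% intervals of 38 of 39 members lay within a log2 fold change of 0.5 either way, which corresponds to ratios of FPKM + 1 of 0.707 to 1.41. The exception was Ltbp2, whose interval reached -0.52. These intervals are per gene and on the FPKM + 1 scale, which understates the change of low genes. Smad6 had -0.31 on this scale and -0.41 with voom on recovered reads. The count of 38 therefore holds for the FPKM + 1 scale only.

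**Figure D4:**
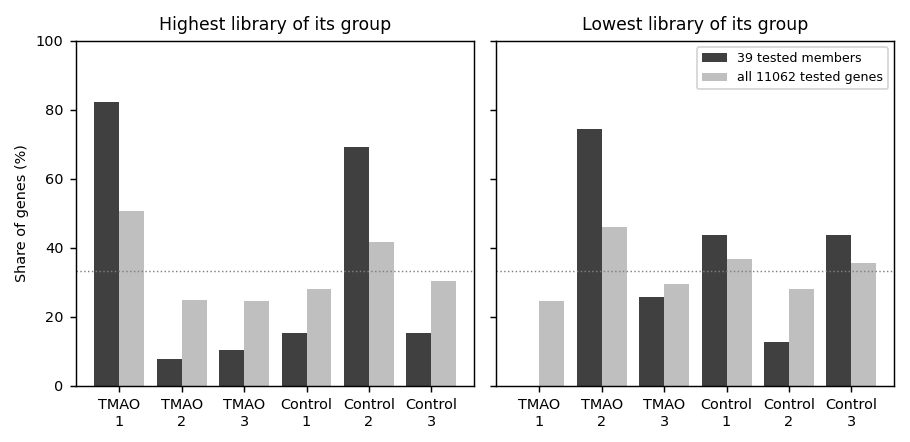
Share of the 39 tested members (dark) and of all 11062 tested genes (light) for which each library was the highest (left) or the lowest (right) of the 3 in its group, in percent. The dotted line marks an equal share. TMAO 1 was highest for 82.1% and TMAO 2 lowest for 74.4% of members.

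The members tended to stand high or low together in a library. TMAO 1 was the highest TMAO library for 32 of 39 members (82.1%, against 50.7% of all tested genes) and the lowest for 0. TMAO 2 was the lowest TMAO library for 29 (74.4%, against 45.9%). Control 2 was the highest Control library for 27 (69.2%, against 41.7%). Id2, Id1 and Smad6 went against this order among the TMAO libraries, with TMAO 2 as the highest. Genes of 1 library share its handling, so these counts describe libraries and are no test.

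**Figure D5:**
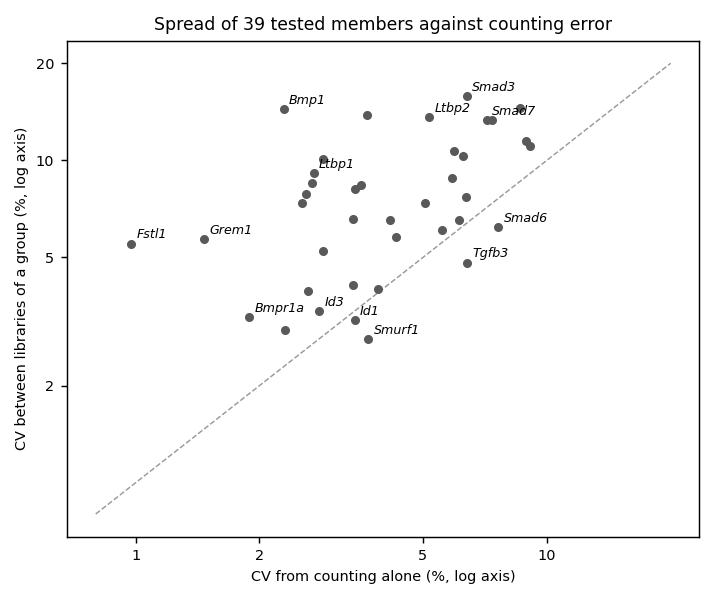
Coefficient of variation (CV) between libraries of a group against the CV that counting of the recovered reads alone would give, in percent on log axes, for the 39 tested members. The dashed line marks equality. Bmp1 and Fstl1 lie far above the line, and Id1, Smad6, Tgfb3 and Smurf1 lie on or below it.

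The spread between libraries exceeded counting error for 35 of 39 tested members. The median coefficient of variation was 7.39% between libraries of a group and 3.68% from counting alone. Fstl1, with at least 9835 reads in each library, had 5.52% between libraries and 0.975% from counting. Bmp1 had 14.4% and 2.29%. For Smad6 the values were 6.19% and 7.61%, and for Id1 3.19% and 3.41%, below what counting of reads alone would give.

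Other genes of the pathway gave no call either. A list of 69 further ligands, receptors, antagonists and modulators had 39 tested genes, of which 0 passed as higher and 0 as lower, with 13 log2 fold changes above 0 and 26 below and a median of -0.04, against 0.02 for all tested genes. An unadjusted p under 0.05 was found for 6 of them (15.4%, against 13.1% of all tested genes). All 6 were lower after TMAO (15.4%, against 4.48% of all tested genes), and they were Gdf10, Inhbb, Fbn1, Lrrc32, Furin and Rgmb. The list was chosen with earlier results of these data known, so these shares are no test of it. The gene with the smallest p was Gdf10, also called Bmp3b, a secreted member of the TGF-beta superfamily. It had 5.94, 5.45 and 5.81 FPKM in TMAO, against 7.40, 8.09 and 7.87 FPKM in Control libraries. The groups were well apart, and the log2 fold change of -0.38 had a limma adjusted p = 0.0540. It passed in 3 of 15 alternatives, with limma adjusted p-values of 0.0338 under quantile normalization, 0.0299 with median-ratio size factors and 0.00741 with voom on recovered reads.

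Inhbb, the subunit of activin B, had 10.7, 10.2 and 10.4 FPKM in TMAO, against 12.1, 12.1 and 11.8 FPKM in Control libraries. The groups were apart (log2 fold change -0.19, limma adjusted p = 0.192). Inhba, its relative among the members, had 0.09.

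A list of known TGF-beta targets outside the members had 29 tested genes, of which 0 passed, with 14 log2 fold changes above 0 and 15 below and a median of -0.01. An unadjusted p under 0.05 was found for 9 of them (31.0%, against 13.1% of all tested genes). Of these, 6 were higher (20.7%, against 8.61%), namely Ccn1, Klf10, Tsc22d1, Igfbp3, Junb and Cdkn2b. The other 3 were lower (10.3%, against 4.48%) and were the collagen genes Col1a1, Col1a2 and Col3a1, at log2 fold changes of -0.18, -0.20 and -0.19. Col1a1 also stands among the fibroblast markers. The list was chosen with earlier results of these data known, so these shares are no test of the targets. The smallest p-values belonged to Junb, an AP-1 factor, and Cdkn2b, which codes for a cell cycle inhibitor. Junb had 46.8, 37.8 and 41.9 FPKM in TMAO and 27.9, 31.5 and 32.6 FPKM in Control libraries (log2 fold change 0.44, limma adjusted p = 0.0940). It passed in 1 of the 14 alternatives that gave it a value, without TMAO replicate 2. Cdkn2b had 21.6, 20.7 and 21.0 FPKM in TMAO and 19.4, 18.7 and 19.3 FPKM in Control libraries (log2 fold change 0.14, limma adjusted p = 0.275). Both genes had TMAO libraries above all Control libraries.

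A list of 18 BMP targets without the Id and Smad genes had 8 tested genes, of which 0 passed, with 3 above 0 and 5 below. Of the tested genes, 0 had an unadjusted p under 0.05 (0.0%, against 13.1% of all tested genes). The rest of the list was too low in level to be tested. Hes1, a repressor shared with Notch signalling, had 5.82, 6.49 and 7.07 FPKM in TMAO and 5.85, 5.93 and 5.78 FPKM in Control libraries (log2 fold change 0.12, limma adjusted p = 0.539). Unc5b, a netrin receptor gene, had 6.37, 5.72 and 5.45 FPKM in TMAO and 6.44, 6.81 and 5.82 FPKM in Control libraries (log2 fold change -0.10, limma adjusted p = 0.621). Neither gene had groups that were apart.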

How the data were processed

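The deposited data are 6 tables, 1 for each library, listing genes by identifier and symbol with 1 value in FPKM that the authors computed. Per the labels' protocols, Trizol was used to extract the RNA, and a stranded mRNA kit to build the libraries. The submitters' processing notes name Trimmomatic, HISAT2, Cufflinks, HTSeq and build mm10. They name no annotation release, strand setting or filter. In the header of Control 1 the unit is spelled PKM, and its values imply whole reads as those of the other tables do.

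With exon lengths from GENCODE M21 on mm10 and 1 total per library, FPKM gave whole reads within 0.01 for 25499 genes (98.5% of annotated genes), all 46 members among them. Depth and counting error rest on these reads. GENCODE M21 also gave the coordinates.

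Because FPKM are not counts, limma 3.58.1 in R 4.3.3, with trended and robust variance, was fitted to log2(FPKM + 1). All 11062 genes at 1 FPKM or more in 3 or more libraries entered the fit. The same fit was also run on simulated counts, with the same dispersion for every gene and libraries drawn independently. Such counts lack the order of libraries that genes share in these data, so the simulation cannot show how the fit performs here. A count test had been foreseen for count tables only. Other steps used Python 3.11.15 with numpy 2.4.6, matplotlib 3.10.9 and pandas 2.3.3.

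Members and lists were chosen with earlier results of these data known. Values per library are given for the most abundant member of each role, for the 2 tested members of each role with the smallest p and for members with an unadjusted p under 0.05. Other members shown in this way were chosen after their values were seen. For each list of further pathway or target genes, the 2 tested genes with the smallest p are shown in the same way. Marker lists are given by sums, counts and examples. The alternatives were 2 scalings, 3 filters, a pseudocount of 0.1, a fit without robust variance, a replicate block, voom on recovered reads and each of 6 libraries left out.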

Additional observations from a re-analysis of the deposited data

How the results depend on the processing

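No member passed the threshold in any of 15 alternatives, where limma adjusted p-values went down to 0.0923 (voom, Ltbp2). The count of all genes past the threshold, 20, became 0 with no filter, 91 with voom on recovered reads and 11 to 56 when single libraries were left out (12 without TMAO replicate 1, 56 without TMAO replicate 2 and 11 without Control replicate 3). Members whose groups do not overlap numbered 6, and 11 with quantile normalization (20.2% of all genes), 12 with median-ratio size factors (18.5%) and 8 to 15 without single libraries, where 26.3 to 32.4% of all genes did not overlap. Members with an unadjusted p under 0.05, a count added after seeing the data, numbered 5, and 8 with quantile normalization, where 14.0% of all genes did, and 4 to 7 without single libraries (9.55 to 13.7% of all genes). In some alternative Tgfb1, Bmp4, Bmp6, Tgfbi, Tgfbr3, Eng, Smad1, Smad7, Skil, Grem1, Fstl3 and Id2 also had one. No scaling moved the median of all genes by over 0.1.

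The sign turned for 12 of 39 members, none past the threshold. With median-ratio size factors Bmp1 had -0.002 and Smurf1 -0.00078. Over the fits without single libraries the log2 fold change ranged from -0.10 to 0.15 for Bmp1, -0.01 to 0.17 for Bmp4, -0.18 to 0.01 for Ltbp3, -0.11 to 0.01 for Bmpr2 and Bambi, -0.04 to 0.03 for Acvr1 and -0.01 to 0.15 for Acvr1b. It ranged from -0.13 to 0.05 for Smad3, -0.0027 to 0.12 for Ski, -0.02 to 0.10 for Fst and -0.01 to 0.10 for Fstl1. The cause was not tested.

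No pairing by replicate number was seen in the deviations from the group means. Same-numbered libraries correlated at -0.0858, -0.104 and 0.0555, and the other pairs at -0.0612 to 0.141. With 3 libraries per group, such values cannot decide whether same-numbered libraries shared a preparation. The replicate block left 0 members and 22 genes past the threshold, with 4 members under an unadjusted 0.05 (10.3%, against 10.7% of all genes). The block took Ltbp1 out of that count. Smad6, Ltbp2, Id1 and Id3 had log2 fold changes of -0.31, -0.30, 0.17 and 0.15 under the block. Depth limits the rare members: Nog, Acvr2b and Bmp2 had at most 22 reads in a library.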
